A study of Homo sapiens with 12 samples.

Results

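STK11, AMPK and mTORC1 form a kinase pathway that ties growth to the energy supply of a cell. The RNA of 10 of its genes was followed in 2 ovarian cancer cell lines: STK11, PRKAA1, PRKAA2, PRKAB1, SIK1, MTOR, RPTOR, TSC1, TSC2 and DDIT4. They were found by exact gene symbol and make up 10 of the 46350 named genes counted. The set was chosen by a readout, the absence of STK11 counts in SKOV3. The difference of STK11 between the lines is therefore described with no test.

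Poly-A RNA of human cells was sequenced in 12 libraries, 3 in each of 4 groups. SKOV3 is a human epithelial ovarian cancer line labelled as sensitive to cisplatin, and SKOV3/DDP is its labelled cisplatin-resistant counterpart. Each was left untreated or was given paeonol (PAE), a phenolic compound of peony root bark, and the treated groups are named SKOV3_PAE and SKOV3/DDP_PAE. The labels used here give no dose, time or batch, and the series describes its libraries as biological triplicates. Each arm is a single cultured line, so a difference between the lines is a difference between these cultures.

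Libraries held between 14610008 and 18263479 counts. The 3 untreated SKOV3 libraries stood apart from the others in base composition. Their deviation from the mean level of each gene rose with the GC content of its transcript (Spearman correlations across 15090 genes between 0.676 and 0.683, against -0.541 to -0.329 in the other 9). The lines also differed in markers of cell type. Of 6 epithelial markers, 5 were called higher and 1 lower in untreated SKOV3/DDP. The one that was lower was KRT7, a keratin of simple epithelia, at 3607 CPM (counts scaled to library depth) in SKOV3 and 1.22 in SKOV3/DDP. Those that were higher were EPCAM (1.26 and 289), CDH1 (7.63 and 442), KRT8 (3311 and 5279), KRT18 (1498 and 4190) and KRT19 (7.66 and 1349). The intestinal markers CDX2 and CDH17 averaged 163 and 339 CPM in SKOV3/DDP and were listed at 0 in untreated SKOV3. The remaining intestinal markers were lower in SKOV3/DDP, at 38.9 CPM for LGALS4, 10.97 for VIL1 and 6.61 for CDX1. KRT20, an intestinal keratin, was near 0 there, at 0.209 CPM from 10 counts. The 6 intestinal markers together summed to between 531 and 576 CPM in the SKOV3/DDP libraries, 163 to 249 in SKOV3/DDP_PAE, 0.254 to 0.887 in SKOV3 and 0.158 to 0.406 in SKOV3_PAE. The 6 Mullerian and ovarian cancer markers summed to between 464 and 510 CPM in SKOV3 and between 459 and 510 in SKOV3/DDP. These similar sums hide opposite changes, since of the 4 markers tested 1 was called higher and 3 lower in untreated SKOV3/DDP. PAX8 averaged 29.7 CPM in SKOV3 and 4.13 in SKOV3/DDP, ERBB2 306 and 96.5, MUC16 2.09 and 0.390, and MSLN 149 and 388. WT1 and ESR1 were at or near 0 in every group. These differences move with every comparison of the lines below, and their part in those results was not tested. Fewer cells with a transcript and less of it per cell cannot be told apart in bulk RNA.

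STK11, also known as LKB1, is a kinase that works in a complex with a STRAD pseudokinase and the scaffold MO25. It activates AMPK, a complex of a catalytic alpha, a scaffolding beta and a regulatory gamma subunit, when energy is low. AMPK then restrains mTORC1, the growth kinase complex of MTOR and RPTOR, by phosphorylating RPTOR and TSC2. TSC1 and TSC2 form the complex that switches off RHEB, the activator of mTORC1, and DDIT4 is a stress-induced inhibitor that acts through them. STK11 also activates SIK1 and other AMPK-related kinases, which keep the CRTC coactivators of CREB in the cytoplasm. These are controls on proteins, whereas the values here are levels of RNA.

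Promoter windows of all 10 members were matched in RefSeq (GRCh38.p14), from 250 bases before to 50 after each start. STK11 is shown because its RNA was absent from 1 line, SIK1 because CREB acts on it in many tissues, and TSC2 because its window held all 3 motifs searched. The motifs were the CREB core CGTCA, the E-box CACGTG and the ATF4-type motif TGATGNAAN. Both strands were searched. Capitals mark matches, and in TSC2 the 3 matches overlap in 1 run.
STK11, chr19:1205528-1205827, plus strand: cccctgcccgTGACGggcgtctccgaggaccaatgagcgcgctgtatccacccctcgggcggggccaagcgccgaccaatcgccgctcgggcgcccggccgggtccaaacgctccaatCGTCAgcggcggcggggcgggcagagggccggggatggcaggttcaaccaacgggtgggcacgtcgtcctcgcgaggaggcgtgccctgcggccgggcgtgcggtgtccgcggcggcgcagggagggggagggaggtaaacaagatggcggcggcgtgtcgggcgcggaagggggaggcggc
SIK1, chr21:43427082-43427381, minus strand: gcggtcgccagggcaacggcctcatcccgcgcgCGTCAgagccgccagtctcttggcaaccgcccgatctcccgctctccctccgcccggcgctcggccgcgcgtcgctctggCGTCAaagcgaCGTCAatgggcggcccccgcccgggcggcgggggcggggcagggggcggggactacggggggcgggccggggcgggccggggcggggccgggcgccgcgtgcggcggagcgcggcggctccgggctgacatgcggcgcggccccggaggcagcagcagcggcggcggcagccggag
TSC2, chr16:2047735-2048034, plus strand: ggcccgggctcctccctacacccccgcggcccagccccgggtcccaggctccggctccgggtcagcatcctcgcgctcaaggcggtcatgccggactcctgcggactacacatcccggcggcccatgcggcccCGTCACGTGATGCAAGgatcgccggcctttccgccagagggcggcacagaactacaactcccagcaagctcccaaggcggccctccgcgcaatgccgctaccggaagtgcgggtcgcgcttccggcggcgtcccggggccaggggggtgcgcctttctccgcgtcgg

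The CREB core was present in 4 of the 10 members. SIK1 held 3 matches, STK11 held 2, and TSC1 and TSC2 held 1 each. Of the 27305 promoter windows of the same length, 25.0% held this core, 7.43% the E-box and 3.67% the ATF4-type motif. The E-box and the ATF4-type motif were found in TSC2 and in no other member's window. A match is a run of letters and not a measured binding site.

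STK11 (gene ID 6794, chr19:1205778-1228431, plus strand) had no count in any of the 6 SKOV3 libraries. SKOV3/DDP libraries held 104, 100 and 111 CPM, from 1802, 1587 and 1817 counts. SKOV3/DDP_PAE libraries held 95.5, 79.9 and 68.1 CPM. The lines did not overlap, and no read was assigned to STK11 in either SKOV3 group. A count of 0 over the group allows up to 0.0862 CPM in SKOV3 and 0.0537 CPM in SKOV3_PAE (3 counts, counting error only). Against these floors, STK11 was at least 1220-fold higher in untreated SKOV3/DDP and at least 1521-fold higher in SKOV3/DDP_PAE.

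**Figure D1:**
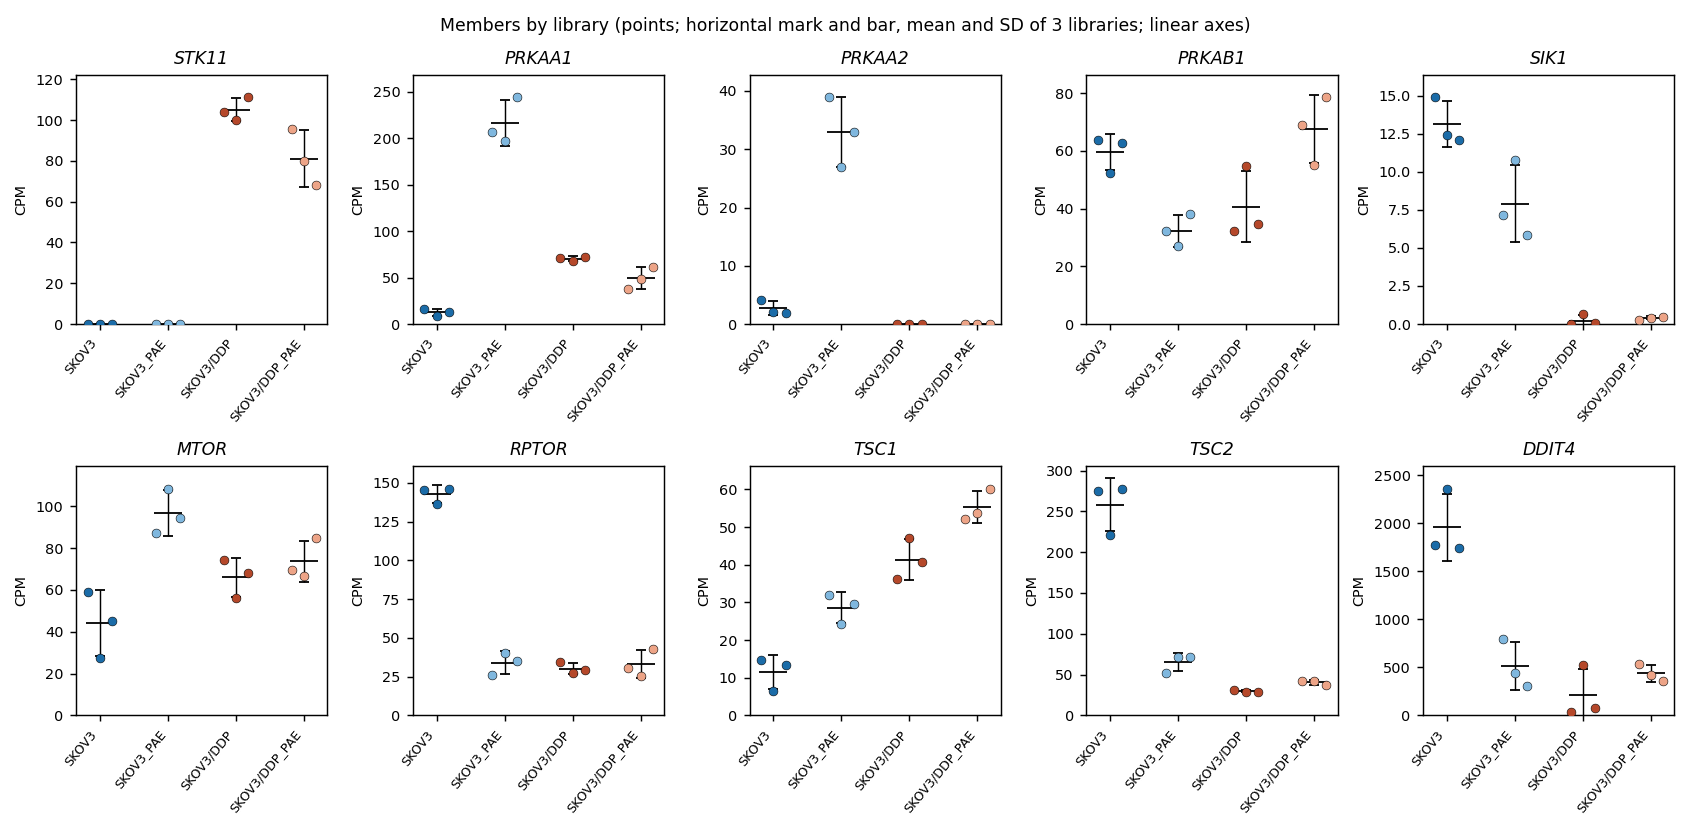
Level of each of the 10 members in each library, in CPM on linear axes that differ between panels; points are libraries, horizontal marks are means and bars are SD over 3 libraries. STK11 lies at 0 in the 6 SKOV3 libraries and between 68.1 and 111 CPM in the 6 SKOV3/DDP libraries, and PRKAA2 and SIK1 lie near 0 in SKOV3/DDP.

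PAE was the contrast in SKOV3/DDP that the choice of STK11 did not use. The mean was 105 ± 5.61 CPM (SD, n = 3) without PAE and 81.2 ± 13.7 with it. On these levels every treated library lay below every untreated one. On library sizes alone the groups overlapped, at 114, 97.5 and 122 CPM without PAE and 114, 97.8 and 78.1 with it. The log2 fold change was -0.37 with a standard error of 0.22, and it did not pass the edgeR quasi-likelihood test (adjusted p = 0.230). With the GC and length trend removed it was -0.10.

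The genes around STK11 were counted in SKOV3. Of the 20 nearest protein-coding genes, 10 on each side between chr19:982928 and chr19:1435684, 18 had at least 10 counts in every SKOV3 library. The nearest gene before STK11 with substantial counts was SBNO2, at 27.0 CPM in SKOV3 and 11.8 in SKOV3/DDP. GPX4, a lipid peroxide reductase, averaged 1508 CPM in SKOV3 and 293 in SKOV3/DDP. ATP5F1D, a subunit of ATP synthase on the other side, averaged 289 and 81.1 CPM. Untreated, the mean was higher in SKOV3 than in SKOV3/DDP for 15 of the 20. This comparison uses the SKOV3 libraries that stood apart in base composition, whose part in it was not tested. Under PAE most of the 20 were instead lower in SKOV3_PAE than in SKOV3/DDP_PAE. There GPX4 averaged 151 and 219 CPM, ATP5F1D 36.2 and 53.5, and SBNO2 4.21 and 4.16. The remaining neighbours with at least 10 counts in every SKOV3 library were WDR18, GRIN3B, TMEM259, CNN2, ABCA7, ARHGAP45 and POLR2E before STK11, and MIDN, CIRBP, FAM174C, EFNA2, PWWP3A, NDUFS7, GAMT and DAZAP1 after it. LOC102725180 was at 0 in both SKOV3 groups, and it was also below 1 CPM in SKOV3/DDP.

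CBARP, the next gene after STK11, overlaps its end by 145 bases on the opposite strand. CBARP averaged 6.98 CPM in SKOV3, 0.487 in SKOV3_PAE, 26.6 in SKOV3/DDP and 28.2 in SKOV3/DDP_PAE. It was the neighbour with the fewest counts in SKOV3_PAE among those counted in every SKOV3 library, 1 in the lowest. How reads in the shared stretch were assigned is not given in the sources used here.

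**Figure D2:**
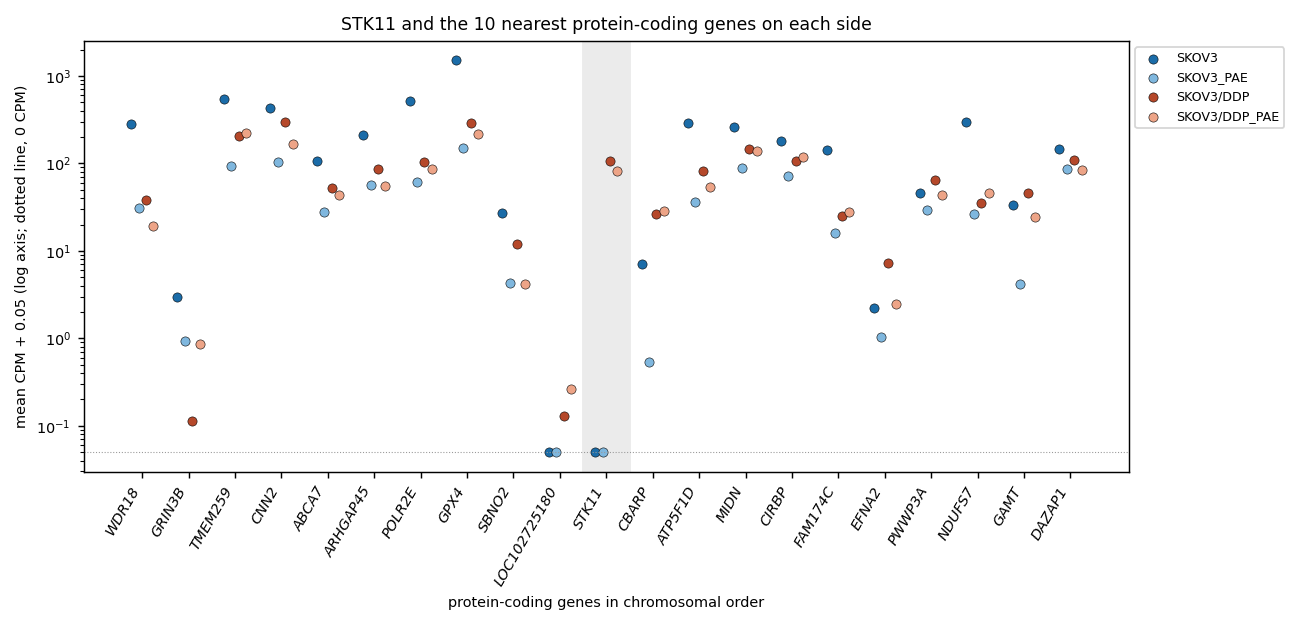
Mean CPM + 0.05 on a log axis of STK11 (shaded) and the 10 nearest protein-coding genes on each side, in chromosomal order, for the 4 groups (means of 3 libraries). STK11 and LOC102725180 sit on the line of 0 CPM in both SKOV3 groups, whereas GPX4 and POLR2E reach 1508 and 519 CPM in SKOV3.

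STK11 was not alone in this pattern. No count in the 6 SKOV3 libraries and at least 10 CPM in both SKOV3/DDP groups was found for 40 genes, out of 8735 genes at that level in both SKOV3/DDP groups. STK11 ranked 7 of the 40 by its level in untreated SKOV3/DDP. The 5 protein-coding genes whose log2 CPM followed STK11 most closely over the 12 libraries, among 10882 compared, were PLCB4, EPDR1, C1orf115, GSTT1 and MOCS1 (Pearson r between 0.999 and 1.00). All 5 were at 0 in SKOV3. In these 12 libraries such a correlation reflects mostly the contrast between 2 lines. PLCB4, a phospholipase C, was the closest, at 103 CPM in SKOV3/DDP and 79.2 in SKOV3/DDP_PAE.

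The partners of STK11 were present in both lines. STRADA averaged 21.0 ± 3.60 CPM in SKOV3 and 20.5 ± 2.34 in SKOV3/DDP. CAB39, which encodes MO25 alpha, averaged 12.1 ± 6.15 CPM in SKOV3, 149 ± 8.13 in SKOV3_PAE, 133 ± 19.6 in SKOV3/DDP and 130 ± 33.2 in SKOV3/DDP_PAE. Only untreated SKOV3 was low among these 4 group means. Its rise with PAE in SKOV3 was 3.63 on the log2 scale (adjusted p = 7.13e-08), and 0.99 with the GC trend removed (adjusted p = 0.000998). CAB39L, which encodes MO25 beta, rose with PAE in SKOV3/DDP by 1.14 ± 0.26 (log2, SE, adjusted p = 0.00517). It was also 1.88 higher in SKOV3/DDP_PAE than in SKOV3_PAE (log2, adjusted p = 2.20e-05).

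In untreated cells all 9 members tested besides STK11 were called, 3 higher and 6 lower in SKOV3/DDP. Calls were common in the whole table as well, where 81.5% of 17133 genes passed, 45.7% higher and 35.8% lower. Between the lines under PAE, 6 of 9 members were called, 2 higher and 4 lower, beside 54.4% of all genes, 27.4% higher and 27.0% lower. Set against these shares, the counts of members are no result about the pathway, and they include PRKAA2 and SIK1, which had to differ to be tested. All 10 members passed the filter on low counts, PRKAA2 and SIK1 through the SKOV3 groups and STK11 through the SKOV3/DDP groups.

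PAE moved 7 of 9 members in SKOV3 and 1 of 10 in SKOV3/DDP. In SKOV3, 4 rose and 3 fell, beside 75.0% of all genes, 42.5% higher and 32.5% lower. In SKOV3/DDP, PRKAB1 alone was called, beside 26.5% of all genes, 11.8% higher and 14.7% lower. The PAE effects of the lines differed for 7 of 9 members, 3 in favour of SKOV3/DDP and 4 of SKOV3, with PRKAA2 among the latter on 4 counts in SKOV3/DDP, beside 62.7% of all genes, 25.4% higher and 37.3% lower. The effect in SKOV3 and the difference of effects rest on the untreated SKOV3 libraries, as does the comparison of the untreated lines, and the comparisons that share these libraries are not independent.

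Removal of the GC and length trend changed several of these counts. The members called became 8 of 9 between untreated lines, 7 of 9 between lines under PAE, 3 of 9 for PAE in SKOV3, 3 of 10 for PAE in SKOV3/DDP and 5 of 9 for the difference. The shares of 15090 genes called in that fit were 69.8%, 59.7%, 50.3%, 32.7% and 42.2% in the same order. The median log2 fold change of the members under PAE in SKOV3 was -0.73 as fitted and 0.31 with the trend removed, and the median over all genes was 0.48 and 0.19.

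**Figure D3:**
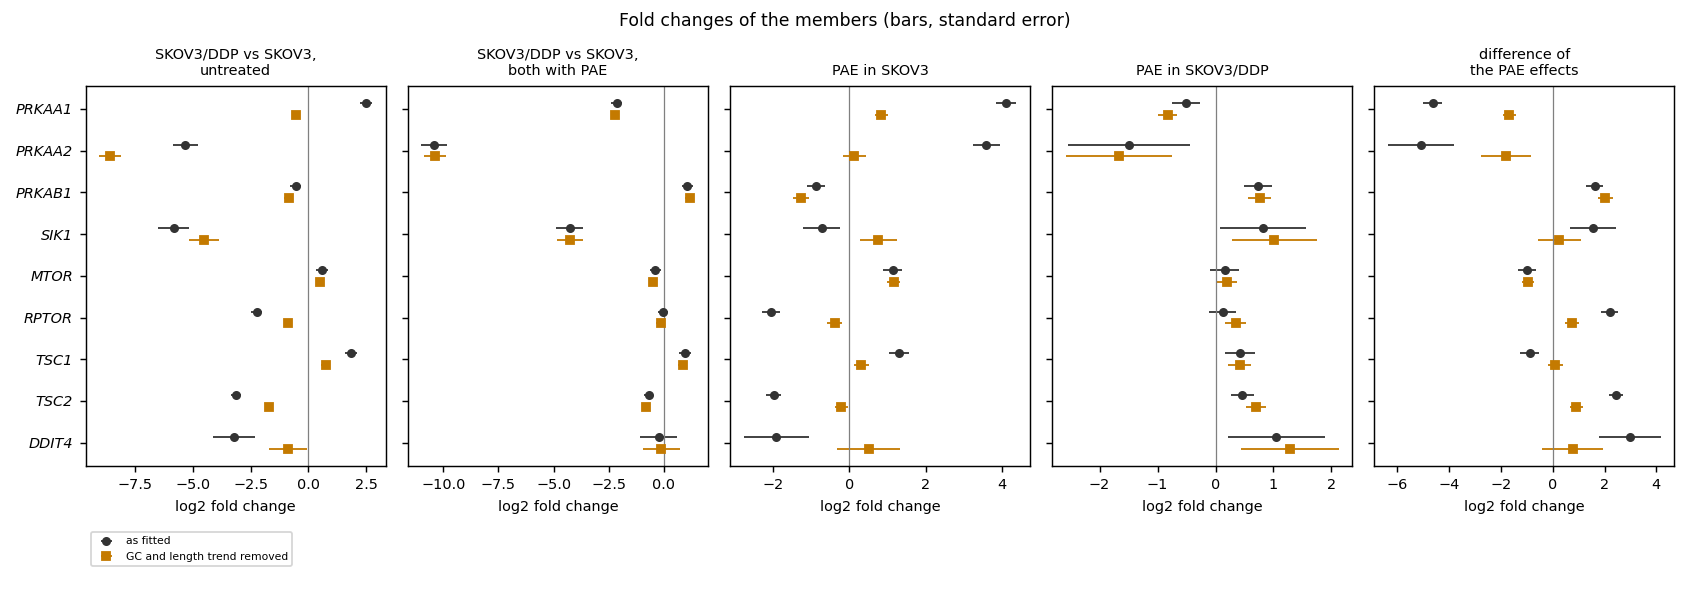
Log2 fold change of the 9 members other than STK11 in each comparison, with standard errors; circles are as fitted and squares have the GC and length trend removed, and the axes differ between panels. PRKAA1 moves from 2.50 to -0.55 between the untreated lines, whereas the values between the lines under PAE keep their sign.

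The members span most of the range of base composition. PRKAA1 and PRKAA2 transcripts have 35.3% and 35.2% GC, at the 1.88 and 1.72 percentiles of all genes, whereas STK11 has 65.8%, TSC2 60.5% and RPTOR 59.8%. Across 105 pathway genes, the log2 effect of PAE in SKOV3 fell with GC (Spearman -0.823). In SKOV3/DDP the corresponding value was -0.124. These points share libraries and are not independent. After removal of the trend the value in SKOV3 was -0.035.

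**Figure D4:**
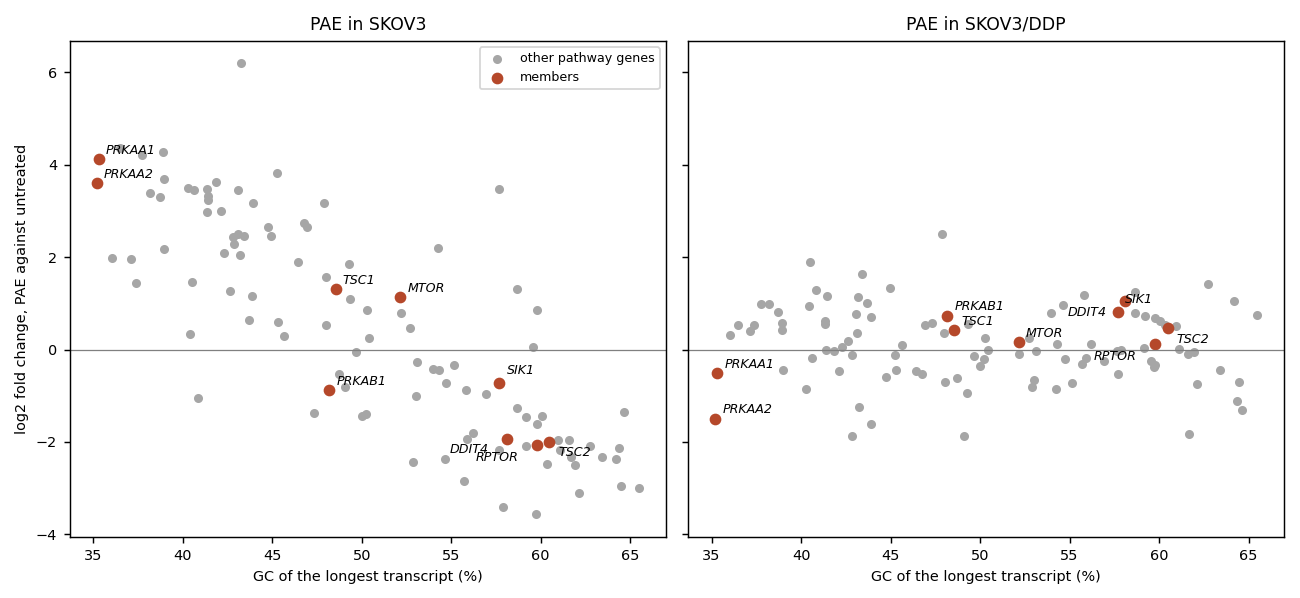
Log2 fold change under PAE against the GC content of the longest transcript, for members (red) and the other pathway genes (grey), in SKOV3 (left) and SKOV3/DDP (right). The left panel falls from 4.12 at PRKAA1 to -1.99 at TSC2, and the members in the right panel lie between -1.49 and 1.05.

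PRKAA1 encodes the alpha 1 catalytic subunit of AMPK (chr5:40759379-40798195, minus strand). SKOV3 libraries held 16.1, 8.35 and 12.8 CPM, and SKOV3_PAE libraries held 207, 197 and 244. SKOV3/DDP libraries held 70.6, 68.0 and 72.5 CPM, and SKOV3/DDP_PAE libraries 38.1, 48.9 and 61.3. On these levels none of the 4 groups overlapped another. On library sizes alone the SKOV3/DDP groups overlapped, at 66.2 to 79.4 CPM without PAE and 45.6 to 70.3 with it. Under PAE, SKOV3/DDP was lower by 2.13 ± 0.25 on the log2 scale (SE, adjusted p = 2.55e-06), and by 2.22 with the trend removed. The call between untreated lines went the other way, 2.50 ± 0.26 higher in SKOV3/DDP (adjusted p = 1.55e-07), and turned to -0.55 with the trend removed (adjusted p = 0.00884).

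PAE raised PRKAA1 in SKOV3 by 4.12 ± 0.27 on the log2 scale (adjusted p = 4.82e-09). With the trend removed the rise was 0.84 ± 0.17 (adjusted p = 0.000796), so the direction and the call held at a smaller size. In SKOV3/DDP the change was -0.51 ± 0.24 (adjusted p = 0.129), and -0.83 ± 0.16 with the trend removed (adjusted p = 0.00163). The 2 effects differed by -4.63 as fitted and by -1.67 with the trend removed (adjusted p = 7.75e-08 and 6.00e-05).

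PRKAA2 encodes the alpha 2 catalytic subunit, common in muscle (chr1:56645314-56715335, plus strand). Counts in SKOV3 were 46, 25 and 23, and in SKOV3_PAE 670, 532 and 626. SKOV3/DDP held 1 count in each library, and SKOV3/DDP_PAE 0, 1 and 0. Both SKOV3 groups lay above both SKOV3/DDP groups. The level in SKOV3 was 44.6 times that in SKOV3/DDP, with a 95% counting interval of 14.8 to 220. In the treated groups the ratio was 1957, with an interval of 351 to 77330. Since PRKAA2 passed the filter through the SKOV3 groups alone, its difference between the lines is a description.

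Per length, PRKAA1 exceeded PRKAA2 in every library. PRKAA2 made up 11.3 ± 2.73% of the summed per-length level of the 2 genes in SKOV3 and 8.17 ± 1.46% in SKOV3_PAE (SD, n = 3). In SKOV3/DDP it made up 0.0501 ± 0.00339%, and 0.0186 ± 0.0322% with PAE. PAE raised PRKAA2 in SKOV3 by 3.60 as fitted, but by 0.13 with the trend removed (adjusted p = 0.741). Its share changed little in SKOV3, and both genes have nearly the same GC content. In SKOV3/DDP 4 counts over 6 libraries leave the effect of PAE on PRKAA2 undetectable.

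PRKAB1 encodes the beta 1 scaffold of AMPK (chr12:119667864-119681624, plus strand). SKOV3 libraries held 63.8, 52.3 and 62.9 CPM and SKOV3_PAE 32.2, 26.9 and 38.0. SKOV3/DDP libraries held 32.4, 54.8 and 34.8 CPM and SKOV3/DDP_PAE 68.9, 55.2 and 78.6. On these levels PAE lowered it in SKOV3 and raised it in SKOV3/DDP, without overlap of the libraries in either line. On library sizes alone the SKOV3 groups overlapped and the change there was 0.0016. Replicate 2 of SKOV3/DDP lay just below the treated range. The fall in SKOV3 was -0.88 ± 0.24 (log2, SE, adjusted p = 0.00346) and the rise in SKOV3/DDP 0.73 ± 0.24 (adjusted p = 0.0333). The difference of the effects was 1.61 ± 0.34 (adjusted p = 0.000577), and 2.03 with the trend removed.

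The rise of PRKAB1 in SKOV3/DDP was close to the threshold. Without replicate 1 or 3 of SKOV3/DDP, or replicate 1 or 3 of SKOV3/DDP_PAE, it did not pass (log2 0.63, 0.66, 0.76 and 0.65, adjusted p between 0.0691 and 0.129). Under the replicate block it was 0.72 (adjusted p = 0.0555). Between the untreated lines PRKAB1 was 0.55 lower in SKOV3/DDP (adjusted p = 0.0431), a call lost without any 1 of 4 libraries (replicates 1 and 3 of each group) and with a direction that turned to 0.11 on library sizes alone. Between the lines under PAE it was higher in SKOV3/DDP by 1.06 ± 0.24 (adjusted p = 0.00149).

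Of the other AMPK subunits, PRKAB2, the beta 2 subunit, averaged 2.60 CPM in SKOV3, 29.1 in SKOV3_PAE, 67.6 in SKOV3/DDP and 104 in SKOV3/DDP_PAE. Per length it made up 1.51% of the 2 beta genes in SKOV3, 24.4% in SKOV3_PAE, 37.0% in SKOV3/DDP and 34.5% in SKOV3/DDP_PAE. These shares carry no correction for GC, which is 41.4% in PRKAB2 and 48.2% in PRKAB1. The rise of PRKAB2 with PAE in SKOV3 was 3.48 as fitted and 0.75 with the trend removed (adjusted p = 3.44e-07 and 0.0362). Between the untreated lines it was higher in SKOV3/DDP by 4.70 and by 2.06. PRKAB2 was higher in SKOV3/DDP than in SKOV3 under PAE by 1.84 ± 0.33 (log2, adjusted p = 0.000204). PRKAG1, a gamma subunit, fell with PAE in SKOV3/DDP by 0.70 on the log2 scale (adjusted p = 0.0311). PRKAG2, another gamma subunit, rose with PAE in SKOV3 by 2.73 as fitted and by 1.13 with the trend removed (adjusted p = 2.36e-08 and 0.000694). PRKAG3 was at or near 0 throughout.

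SIK1 is an AMPK-related kinase that depends on STK11 (chr21:43414483-43427131, minus strand). SKOV3 libraries held 168, 146 and 143 counts, and SKOV3_PAE libraries 123, 212 and 111. SKOV3/DDP held 0, 10 and 1, and SKOV3/DDP_PAE 6, 9 and 9. The lines did not overlap with or without PAE. The level of SIK1 in SKOV3 was 59.1 times that in SKOV3/DDP, with a counting interval of 32.7 to 119. Replicate 2 of SKOV3/DDP held 10 of the 11 counts behind this ratio, and without it the ratio was 442, with an interval of 79.0 to 17500. Under PAE the ratio was 19.9, with an interval of 13.2 to 31.4. SIK1 also passed the filter through the SKOV3 groups alone, so its difference between the lines is likewise a description.

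These SIK1 counts are uncertain because the annotation holds a near-identical copy, SIK1B (chr21:6111131-6123778), of the same length of 4747 bases. SIK1B took most of the counts, 886 to 1242 in SKOV3, 897 to 1648 in SKOV3_PAE, 55 to 141 in SKOV3/DDP and 448 to 713 in SKOV3/DDP_PAE. SIK1 was 12.8 ± 1.18% of the summed counts in SKOV3 and 11.1 ± 0.279% in SKOV3_PAE. In SKOV3/DDP_PAE it was 1.42 ± 0.482%. Summed, the pair reached 104 ± 19.2 CPM in SKOV3, 71.1 ± 21.2 in SKOV3_PAE, 5.50 ± 3.51 in SKOV3/DDP and 28.98 ± 4.50 in SKOV3/DDP_PAE.

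PAE raised the summed pair in SKOV3/DDP by 2.4 on the log2 scale (adjusted p = 0.000290). SIK1 alone was not called there, at 0.82 ± 0.75 (adjusted p = 0.449), and passed only when replicate 2 of SKOV3/DDP was left out (3.46, adjusted p = 0.00865). The sum was set up after the data had been examined. Between the lines it was lower in SKOV3/DDP by 4.24 untreated and by 1.29 under PAE (adjusted p = 3.92e-08 and 0.00400). In SKOV3 the effect of PAE on the sum was -0.54 (adjusted p = 0.147), and on SIK1 it was -0.73 as fitted and 0.76 with the trend removed, neither called.

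Genes that CREB and its CRTC coactivators can induce were followed beside SIK1. Of the 11 listed, PAE raised 4 and lowered none in SKOV3/DDP, beside 11.8% and 14.7% of all genes. With the trend removed 3 rose and 1 fell, beside 32.7% of all genes called in either direction. NR4A2, an immediate-early nuclear receptor, went from 6.71 ± 1.34 to 37.8 ± 3.24 CPM, a rise of 2.49 ± 0.50 (log2, adjusted p = 0.00337). PER1, a clock gene, went from 49.8 ± 28.1 to 133 ± 33.0 CPM and rose by 1.42 ± 0.36 (adjusted p = 0.0104). In SKOV3, 6 of 11 rose and 1 fell, beside 42.5% and 32.5% of all genes, and the one that fell was PER1, at -2.09 as fitted and -0.08 with the trend removed.

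Among the 12 AMPK-related kinases, SIK1 included, PAE raised none and lowered 3 in SKOV3/DDP, beside 11.8% and 14.7% of all genes. With the trend removed, 2 rose and 3 fell, beside 32.7% of all genes called in either direction. Those that rose were SIK2 and MARK2 (log2 0.54 and 0.85, adjusted p = 0.0339 and 0.0144). BRSK2, a neuronal kinase of this family, fell by 1.11 ± 0.26 on the log2 scale (adjusted p = 0.00571) and BRSK1 by 1.3 ± 0.42 (adjusted p = 0.0300). MARK1, a microtubule affinity regulating kinase, showed a pattern like that of PRKAA2. It averaged 2.84 CPM in SKOV3, 13.9 in SKOV3_PAE, 0.0829 in SKOV3/DDP and 0.0183 in SKOV3/DDP_PAE.

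TSC2 encodes tuberin, the GTPase activating subunit that acts on RHEB (chr16:2047804-2089491, plus strand). SKOV3 libraries held 276, 222 and 278 CPM and SKOV3_PAE 52.2, 71.2 and 71.6. SKOV3/DDP libraries held 30.6, 28.3 and 29.2 CPM and SKOV3/DDP_PAE 42.1, 42.1 and 36.9. All 4 groups were separate from one another. TSC2 was lower in SKOV3/DDP by 3.14 ± 0.21 (log2, SE, adjusted p = 1.64e-09), and by 1.71 with the trend removed (adjusted p = 5.61e-07). Under PAE the difference was -0.69 ± 0.20 (adjusted p = 0.00734), and -0.80 with the trend removed.

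The effect of PAE on TSC2 in SKOV3 was -1.99 ± 0.20 as fitted (adjusted p = 1.57e-07) and -0.21 ± 0.17 with the trend removed (adjusted p = 0.324). In SKOV3/DDP it was 0.46 ± 0.20 (adjusted p = 0.0959), and 0.70 ± 0.17 with the trend removed (adjusted p = 0.00658). TSC2 overlaps PKD1 by 784 bases and NTHL1 by 31 bases on the opposite strand. PKD1 averaged 947, 105, 94.0 and 299 CPM in SKOV3, SKOV3_PAE, SKOV3/DDP and SKOV3/DDP_PAE, and NTHL1 averaged 128, 16.9, 5.73 and 2.65. Both were highest in untreated SKOV3, as TSC2 was. Without the strand of counting, reads of the shared stretches cannot be told apart.

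TSC1 encodes hamartin, the partner that stabilizes tuberin (chr9:132891349-132945269, minus strand). Its libraries held 14.8, 6.48 and 13.4 CPM in SKOV3, 32.1, 24.2 and 29.6 in SKOV3_PAE, 36.2, 47.2 and 40.8 in SKOV3/DDP and 52.2, 53.7 and 60.2 in SKOV3/DDP_PAE. These groups did not overlap either. TSC1 was higher in SKOV3/DDP by 1.84 ± 0.27 untreated (adjusted p = 1.06e-05) and by 0.95 ± 0.26 under PAE (adjusted p = 0.00573). With the trend removed the differences were 0.75 and 0.86, both called.

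PAE raised TSC1 in SKOV3 by 1.31 ± 0.27 (adjusted p = 0.000341), and by 0.31 with the trend removed (adjusted p = 0.213). In SKOV3/DDP the value was 0.42 ± 0.26 (adjusted p = 0.249). Per length, TSC2 stood at 32.6 ± 11.2 times TSC1 in SKOV3, 3.10 ± 0.882 in SKOV3_PAE, 0.957 ± 0.161 in SKOV3/DDP and 0.976 ± 0.141 in SKOV3/DDP_PAE. The ratio was thus above 1 in SKOV3 with or without PAE, and close to 1 in both SKOV3/DDP groups. It carries no correction for GC, which is 60.5% in TSC2 and 48.5% in TSC1. With the trend removed neither TSC2 nor TSC1 was called for PAE in SKOV3 (log2 -0.21 and 0.31). RHEB, their target, rose with PAE in SKOV3 by 1.58 ± 0.20 (adjusted p = 2.68e-06), and by 1.02 with the trend removed. RHEBL1, a RHEB paralog, rose with PAE in SKOV3/DDP by 0.95 ± 0.26 (adjusted p = 0.0135).

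MTOR encodes the kinase itself (chr1:11106535-11273497, minus strand). SKOV3 libraries held 59.2, 27.6 and 45.2 CPM and SKOV3_PAE 87.2, 109 and 94.5. SKOV3/DDP libraries held 74.3, 55.9 and 67.9 CPM and SKOV3/DDP_PAE 69.4, 66.7 and 85.0. PAE raised MTOR in SKOV3 by 1.14 ± 0.25 (log2, SE, adjusted p = 0.000660), without overlap. Its transcript has 52.2% GC, and with the trend removed the rise was 1.16 ± 0.17 (adjusted p = 6.17e-05). MTOR thus kept its size under the correction, unlike TSC1, TSC2, RPTOR and PRKAA2.

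In SKOV3/DDP the change in MTOR was 0.16 ± 0.25 (adjusted p = 0.686) and the groups overlapped. The difference of effects was -0.98 ± 0.35 (adjusted p = 0.0236), and -0.96 with the trend removed (adjusted p = 0.00494). That call was lost when replicate 2 of SKOV3_PAE, replicate 1 of SKOV3/DDP, or replicate 1 or 2 of SKOV3/DDP_PAE was left out (log2 -0.86, -0.86, -0.90 and -0.88). The untreated lines overlapped, and their difference of 0.59 (adjusted p = 0.0404) was lost without replicate 2 or 3 of SKOV3 or replicate 1 or 3 of SKOV3/DDP (log2 0.34, 0.61, 0.46 and 0.54).

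RPTOR encodes raptor, the substrate scaffold of mTORC1 (chr17:80544838-80966368, plus strand). SKOV3 libraries held 146, 136 and 146 CPM. The other 9 libraries lay between 25.3 and 42.8 CPM, and those 3 groups overlapped one another. RPTOR was lower in SKOV3/DDP than in SKOV3 by 2.24 ± 0.24 (log2, SE, adjusted p = 2.51e-07), and by 0.88 with the trend removed (adjusted p = 0.000672). Under PAE the lines differed by -0.05 ± 0.23 (adjusted p = 0.878). The fall with PAE in SKOV3 was 2.07 as fitted (adjusted p = 6.77e-07), and the value with the trend removed was -0.39 ± 0.19 (adjusted p = 0.0950).

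Of the 9 genes of the mTOR complexes, PAE raised 3 and lowered 5 in SKOV3, and 3 rose and 3 fell with the trend removed. The shares of all genes called were 75.0% and 50.3%. RICTOR, the scaffold of mTORC2, averaged 6.95 CPM in SKOV3, 143 in SKOV3_PAE, 37.5 in SKOV3/DDP and 54.5 in SKOV3/DDP_PAE. Its rise with PAE in SKOV3 was 4.36 as fitted and 1.01 with the trend removed (adjusted p = 4.26e-09 and 0.000251). Per length, RICTOR stood at 0.0340 ± 0.0106 times RPTOR in SKOV3 and 3.06 ± 0.741 in SKOV3_PAE. The ratio was 0.882 ± 0.168 in SKOV3/DDP and 1.198 ± 0.267 in SKOV3/DDP_PAE. These ratios carry no correction for GC, which is 36.5% in RICTOR and 59.8% in RPTOR. With the trend removed, the log2 effect of PAE in SKOV3 was 1.01 for RICTOR and -0.39 for RPTOR, the latter not called. In SKOV3/DDP, PAE lowered 2 of the 9 genes of the complexes and raised none, beside 14.7% and 11.8% of all genes. The 2 were PRR5L, an mTORC2 binding protein, from 69.9 ± 14.1 to 19.2 ± 2.33 CPM (log2 -1.87 ± 0.22, adjusted p = 4.87e-05), and MLST8, a subunit of both complexes (log2 -0.70 ± 0.19, adjusted p = 0.0133). With the trend removed 1 fell and 1 rose, beside 32.7% of all genes called in either direction. MLST8 was then no longer called (log2 -0.43, adjusted p = 0.0613), and AKT1S1, an inhibitory subunit of mTORC1, was called (log2 0.79, adjusted p = 0.00382).

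DDIT4, also called REDD1, had the highest mean level per length among the members in every group, in SKOV3/DDP through 1 library (chr10:72273924-72276036, plus strand). SKOV3 libraries held 1770, 2362 and 1748 CPM and SKOV3_PAE 797, 439 and 308. SKOV3/DDP libraries held 34.5, 523 and 77.6 CPM and SKOV3/DDP_PAE 535, 415 and 361. Replicate 2 of SKOV3/DDP lay within the treated range and the other 2 far below it. The untreated lines did not overlap, with a log2 difference of -3.21 ± 0.90 (adjusted p = 0.00825), and -0.89 with the trend removed (adjusted p = 0.366). Without replicate 2 of SKOV3/DDP the difference was -5.12 (adjusted p = 9.27e-08).

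PAE changed DDIT4 in SKOV3/DDP by 1.05 ± 0.84 (adjusted p = 0.398). Without replicate 2 the value was 2.96 (adjusted p = 0.000219), so this single library decided the call. The value in SKOV3 was -1.93 ± 0.86 (adjusted p = 0.0659), and 0.51 with the trend removed. The difference of effects was 2.97 ± 1.19 (adjusted p = 0.0541). It passed without replicate 1 of SKOV3_PAE (3.47), replicate 1 of SKOV3/DDP (2.50) or replicate 2 of SKOV3/DDP (4.89). Between the lines under PAE DDIT4 differed by -0.24 ± 0.83 (adjusted p = 0.830), and by 0.22 without replicate 1 of SKOV3_PAE.

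The library that stood apart in DDIT4 also did so in other pathway genes, chosen after their values were seen. It differed across genes in general as well. The chi-square per gene was 116 against replicate 1 and 106 against replicate 3, but 18.7 between replicates 1 and 3. A difference of this size was not particular to it, with 102 between replicates 2 and 3 of SKOV3/DDP_PAE. SESN2, a sestrin that restrains mTORC1 when leucine is scarce, held 21.1 CPM in replicate 2 of SKOV3/DDP, 0.865 in replicate 1 and 1.29 in replicate 3. In SKOV3_PAE, replicate 1 held 13.9 CPM and the other two 1.12 and 1.05. Replicate 1 was also the SKOV3_PAE library with the most DDIT4. EIF4EBP1, the mTORC1-controlled repressor of EIF4E, held 96.7 CPM in replicate 2 of SKOV3/DDP, 32.8 in replicate 1 and 35.7 in replicate 3. TXNIP, an AMPK substrate that binds thioredoxin, was lowest in that library, at 4.29 CPM against 63.8 and 26.5.

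**Figure D5:**
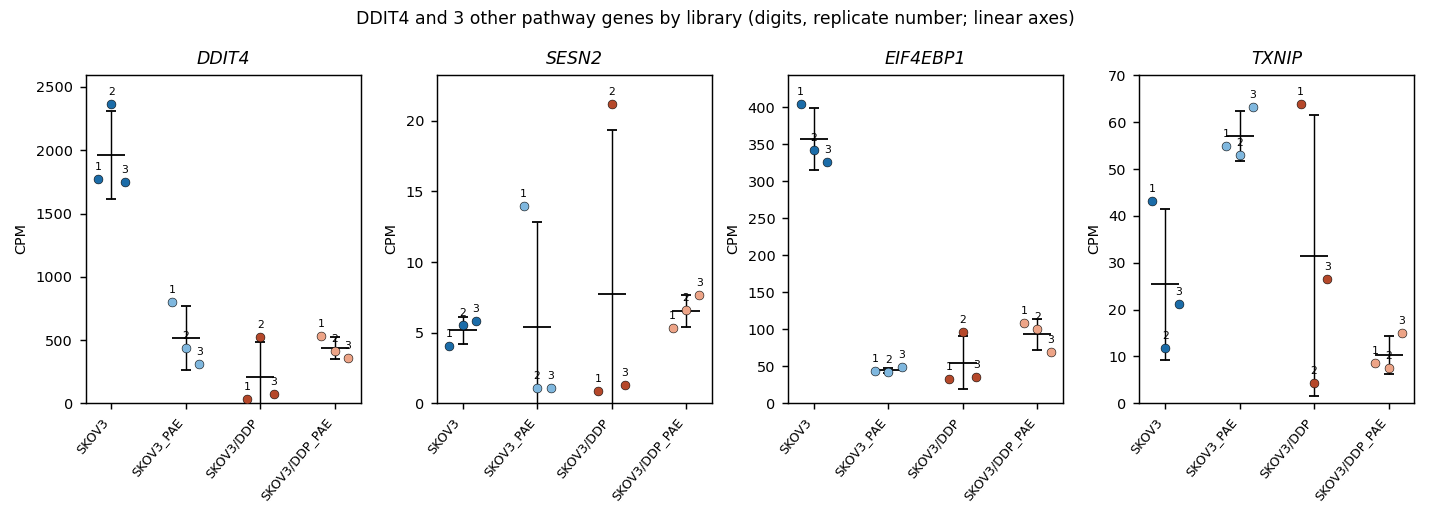
CPM of DDIT4, SESN2, EIF4EBP1 and TXNIP in each library on linear axes; points are libraries with their replicate number, horizontal marks are means, and bars are SD over 3 libraries, drawn down to 0 where they would pass it. Replicate 2 of SKOV3/DDP lies at 523, 21.1 and 96.7 CPM for DDIT4, SESN2 and EIF4EBP1, inside or above the range of the treated SKOV3/DDP libraries.

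Of the other stress inhibitors, SESN3 and DDIT4L divided the lines most sharply, whereas the SESN2 libraries of the lines overlapped with and without PAE. SESN3 averaged 0.289 CPM in SKOV3, 1.14 in SKOV3_PAE, 66.1 in SKOV3/DDP and 86.7 in SKOV3/DDP_PAE. Under PAE it was higher in SKOV3/DDP by 6.25 ± 0.38 (log2, adjusted p = 1.70e-09). DDIT4L, a paralog of DDIT4, went the other way, with 13.4 CPM in SKOV3_PAE, 1.41 in SKOV3 and no count in SKOV3/DDP. SESN1, a p53-responsive sestrin, rose with PAE in SKOV3/DDP from 22.7 ± 3.14 to 70.4 ± 1.89 CPM (log2 1.63 ± 0.27, adjusted p = 0.000517).

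Beyond the members, 98 further genes of the pathway were listed, and 96 passed the filter. PAE in SKOV3/DDP raised 19 and lowered 9 of them, beside 11.8% and 14.7% of all genes. With the trend removed 23 rose and 8 fell, a share near the 32.7% of all genes called in that fit. Under PAE, 34 were higher and 16 lower in SKOV3/DDP than in SKOV3, beside 27.4% and 27.0%. The untreated lines gave 45 higher and 36 lower, beside 45.7% and 35.8%. PAE in SKOV3 gave 46 and 36, beside 42.5% and 32.5%. The difference of effects gave 30 and 37, beside 25.4% and 37.3%. The median log2 fold change of these genes for PAE in SKOV3/DDP was 0.03, beside 0 over all genes.

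Of 12 AMPK substrates, PAE raised 4 and lowered 1 in SKOV3/DDP, beside 11.8% and 14.7% of all genes. ULK1, the autophagy kinase that AMPK activates, went from 78.1 ± 22.0 to 163 ± 15.8 CPM (log2 1.06 ± 0.22, adjusted p = 0.00275). PPARGC1A, a coactivator of mitochondrial genes, went from 2.83 ± 0.926 to 10.5 ± 1.48 CPM (log2 1.89 ± 0.46, adjusted p = 0.00739). TBC1D1, a RAB GTPase activating protein, fell by 0.94 ± 0.29 (log2, adjusted p = 0.0260). MAP3K7, a further AMPK kinase, rose by 0.81 ± 0.20 (log2, adjusted p = 0.00872).

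Among 26 genes of the amino acid input to mTORC1, 4 rose and 2 fell with PAE in SKOV3/DDP, a share near the 26.5% of all genes called. RRAGC, a RAG GTPase, went from 45.3 ± 8.17 to 114 ± 22.1 CPM (log2 1.33 ± 0.26, adjusted p = 0.00202). FLCN, a GTPase activating protein for RAGC and RAGD, rose by 1.18 ± 0.28 (log2, adjusted p = 0.00615). CASTOR1, the arginine sensor, fell by 1.83 ± 0.29 (log2, adjusted p = 0.000422). Among 12 mTORC1 effectors tested, 3 rose and none fell, beside 11.8% and 14.7% of all genes. They included MITF, a transcription factor that RAG GTPases bind (log2 1.16 ± 0.34, adjusted p = 0.0204), and EIF4EBP2, a translation repressor (log2 1.01 ± 0.28, adjusted p = 0.0151).

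Of 3 listed AMPK kinases other than STK11, 2 were higher and 1 lower in SKOV3/DDP under PAE, beside 27.4% and 27.0% of all genes. CAMKK1, a calcium-activated kinase, was higher in SKOV3/DDP by 1.96 ± 0.36 (log2, adjusted p = 0.000237), and MAP3K7 by 0.63 ± 0.20 (adjusted p = 0.0145). CAMKK2, which activates AMPK on calcium signals, was lower by 0.81 ± 0.24 (adjusted p = 0.00869). It averaged 73.8 ± 9.13 CPM in SKOV3, 60.8 ± 10.4 in SKOV3_PAE, 35.1 ± 9.32 in SKOV3/DDP and 34.6 ± 5.67 in SKOV3/DDP_PAE.

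Per kilobase, the mean of DDIT4 ranged from 121 ± 155 CPM per kilobase in SKOV3/DDP to 1124 ± 200 in SKOV3, first among the members in all 4 groups. In SKOV3/DDP this rested on replicate 2, without which the means were 32.1 for DDIT4 and 32.7 for STK11. In SKOV3 TSC2 (37.5), PRKAB1 (24.8) and RPTOR (20.9) followed. With all 3 libraries of SKOV3/DDP, STK11 came second at 31.9 ± 1.70, followed by PRKAB1 at 16.9 ± 5.11 and PRKAA1 at 10.5 ± 0.339. TSC1, RPTOR and TSC2 lay at 4.52, 4.41 and 4.26 there, which do not differ beyond their spread. In SKOV3/DDP_PAE, PRKAB1 and STK11 were close, at 28.1 and 24.6. PRKAA1 was second in SKOV3_PAE, at 32.1 ± 3.69. PRKAA2 was last in both SKOV3/DDP groups, and STK11 in both SKOV3 groups.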

How the data were processed

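RNA of 12 libraries was sequenced after poly-A selection. The authors deposited raw counts, 1 table per library covering 47219 loci on GRCh38. The submitters' processing notes name HISAT2 2.0.5, StringTie 1.3.3b, DESeq2 and edgeR. The counting program and strand are not given in the sources used here. The 869 loci without a gene name (0.126% to 0.678% of counts) were left out.

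Counts were filtered (filterByExpr), scaled with TMM factors and fitted over 12 libraries and 4 groups in edgeR 4.0.16 (R 4.3.3, robust quasi-likelihood test, Benjamini-Hochberg adjustment over 17133 genes, threshold 0.05). Levels are TMM-scaled CPM. Log2 fold changes carry standard errors from the F statistic. A smooth trend on GC content (longest GENCODE transcript) and on the gene length given with the counts was removed from each library in an alternative fit. Others were DESeq2 1.42.0, limma-voom (limma 3.58.1), library sizes alone, no filter, a replicate block, 6 libraries only, libraries left out, and the criteria of the study's methods. The paper names limma for its TCGA and GTEx data and states only that the same criteria were applied to these lines. Here edgeR was used because the values are counts. The fits were tested on simulated data. Ratios carry exact 95% counting intervals, and a group without counts was set at 3 counts.

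The members, the lists and the rule for named genes were chosen with earlier results of these data known. The rule takes all members, and up to 2 other genes of each sign per list and comparison (adjusted p under 0.05, at least 5 CPM in a group). It adds the neighbours and nearest correlates of STK11 and overlapping genes above 1 CPM. Of the genes this rule takes, 1 is not reported here. Libraries of a group differed beyond counting noise. Protein sequences were not used here.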

Additional observations from a re-analysis of the deposited data

Results flagged for a closer look

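The effect of PAE differed between the lines, by the interaction term of the edgeR fit, for 7 members. The difference, SKOV3/DDP minus SKOV3 on the log2 scale, was -4.63 for PRKAA1, -5.09 for PRKAA2, -0.98 for MTOR and -0.89 for TSC1, and 1.61 for PRKAB1, 2.20 for RPTOR and 2.45 for TSC2. The value for PRKAA2 rests on 4 counts over the 6 SKOV3/DDP libraries, where an effect of PAE was not detectable. Of all genes tested, 62.7% differed in this way. With the GC and length trend removed the differences were -1.67 for PRKAA1, -1.80 for PRKAA2 (adjusted p = 0.228), -0.96 for MTOR, 2.03 for PRKAB1, 0.74 for RPTOR and 0.91 for TSC2. The value for TSC1 turned to 0.11 and was not called. As fitted, the TSC1 call was also lost when any 1 of 9 of the 12 libraries was left out, and the MTOR call when any 1 of 4 was.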

How the results depend on the processing

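Settings moved both the values of single members and the counts of members called. With the GC and length trend removed, PRKAA1 turned to -0.55 between the untreated lines (-0.55 also under the replicate block), SIK1 to 0.76 (0.73 with the replicate block) and DDIT4 to 0.51 (0.52) for PAE in SKOV3, and TSC1 to 0.11 (0.10) for the difference of effects. On library sizes alone PRKAB1 turned to 0.11 between the untreated lines and to 0.0016 for PAE in SKOV3, and SIK1 to 0.15. The cause was not tested. Members called for PAE in SKOV3 numbered 7, but 3 with the trend removed, with or without the replicate block, and 3 by the study's criteria, which also gave 3 in place of 6 between the lines under PAE. For PAE in SKOV3/DDP the 1 member called became 2 on library sizes, with limma-voom and without the filter, 3 with the trend removed, with or without the replicate block, 0 under the replicate block alone and 0 by the study's criteria. Leaving out 1 library gave 0 to 3. The other pathway genes called numbered 82 for PAE in SKOV3 as fitted and 51 with the trend removed, beside 75.0% and 50.3% of all genes. For the difference of effects they numbered 67 and 43, beside 62.7% and 42.2% of all genes. Without 1 library, values that were not called turned sign between the lines under PAE for DDIT4 (-0.51 to 0.22) and RPTOR (-0.28 to 0.11, with 0.08 without replicate 2 of SKOV3_PAE) and for PAE in SKOV3/DDP for RPTOR (-0.067 to 0.32). Replicate numbers were not used to pair the samples, except under the replicate block. Deviations of same-numbered libraries correlated by -0.070 to 0.046 on average, and by -0.171 to 0.117 in single pairs. Such values cannot show whether the cultures were paired. At these depths a gene absent from a group could hold up to 0.0862 CPM.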
